A study of Homo sapiens with 27 samples.

Results

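SMYD3 and its relatives SMYD2, SMYD4 and SMYD5 were followed through 27 RNA-seq libraries of REH cells, 4 genes out of 60619 in the count tables. SMYD3 was chosen by its read counts in these same libraries, which were low with lnc-RTN4R-1 GapmeR2 and with both lnc-ASTN1-1 GapmeRs, so its levels are given as a description and carry no p-value. The other 3 members were taken by family name. REH is an established B-cell precursor acute lymphoblastic leukemia line that carries the ETV6/RUNX1 fusion. GapmeRs are antisense oligonucleotides flanked by locked nucleic acid bases, and RNase H cuts the RNA they pair with. For each of 4 lncRNAs (lnc-RTN4R-1, lnc-ASTN1-1, lnc-TIMM21-5 and lnc-NKX2-3-1) there were 2 GapmeRs, added at 10 µM without a transfection reagent, and all cells were harvested after 72 h. The controls were 3 samples with a non-targeting GapmeR (NTC) and 2 samples with medium alone. Of the GapmeR groups, lnc-NKX2-3-1 GapmeR1 and lnc-ASTN1-1 GapmeR2 held 2 samples and the other 6 held 3. All groups came from the one fusion-positive line, and replicates were run on different days.

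SMYD proteins are lysine methyltransferases whose catalytic SET domain is split by a zinc-binding MYND domain. SMYD3 methylates histone H3 lysine 4 and histone H4 lysine 5 in the nucleus and the kinase MAP3K2 in the cytoplasm, and it has mostly been studied in solid tumours, where it is often abundant. SMYD2 methylates p53 and RB among other proteins, SMYD5 has been linked to methylation of histone H4, and SMYD4 is the least studied of the 4. SMYD1 belongs to heart and skeletal muscle.

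On hg38, SMYD3 (ENSG00000185420) lies on the minus strand at chr1:245749342-246507312 and spans 757971 bases, with exons that add up to 5866 bases. SMYD2 (ENSG00000143499) is on the same chromosome at chr1:214281102-214337131, SMYD4 (ENSG00000186532) at chr17:1779485-1830634 and SMYD5 (ENSG00000135632) at chr2:73214222-73227221. They span 56030, 51150 and 13000 bases. SMYD3 is thus by far the longest of the 4 as a gene.

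The oligonucleotides are shown because SMYD3 differed between 2 GapmeRs to the same lncRNA. They are written 5′ to 3′, and capitals mark the longest stretch of each that is perfectly complementary to the sense strand of the SMYD3 gene, introns included.
lnc-RTN4R-1 GapmeR2: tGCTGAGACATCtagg
lnc-RTN4R-1 GapmeR1: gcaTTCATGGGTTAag
lnc-NKX2-3-1 GapmeR1: TGCTCTGTGCggattg
lnc-ASTN1-1 GapmeR2: GTCTGAAGTAATGga
lnc-ASTN1-1 GapmeR1: taaTCTGCCAGGAGTG
NTC: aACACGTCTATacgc

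The libraries held between 14627110 and 22750945 counts assigned to genes. Among markers of B-cell precursors, PAX5 had 10123 to 16428 counts and RAG1 25352 to 44437 counts per sample, and VPREB1 was at 0 throughout. Hemoglobin genes and glycophorin A were at or near 0, as were CD3D and CD3G. Of the markers of other cell types, MPO (1420 to 7725 counts), TRAC (139 to 456), PDGFRB (481 to 1328) and COL1A1 (125 to 333) had at least 10 counts in every sample, and these levels were not tested for a part in the results.

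The intended targets were checked first. lnc-RTN4R-1 had 324 to 445 counts in the 5 controls, 98 to 135 with its GapmeR1 and 59 to 101 with its GapmeR2, which left 28% and 22.5% of the mean control level. lnc-ASTN1-1 had 396 to 502 counts in the controls, 141 to 200 with GapmeR1 and 207 and 264 with GapmeR2, so 40.4% and 52.2% remained. It was also below every control in CPM in all samples with 3 GapmeRs not aimed at it. It stood at 63.4% with lnc-RTN4R-1 GapmeR2, 66.3% with lnc-RTN4R-1 GapmeR1 and 71.5% with lnc-NKX2-3-1 GapmeR1. With these GapmeRs 8.39%, 3.6% and 19% of all tested genes had every sample below every control. lnc-RTN4R-1 was likewise below every control in both samples with lnc-NKX2-3-1 GapmeR1, at 75.5%. lnc-NKX2-3-1 was barely sequenced, with 6 to 23 counts in the controls, 4 and 1 with GapmeR1, and 4, 3 and 0 with GapmeR2. lnc-TIMM21-5 had 20 to 40 counts in the controls, 2 to 10 with GapmeR1 and 1 to 7 with GapmeR2. Each target was therefore lower with both of its GapmeRs, and no sample of these groups reached the lowest control.

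SMYD3 was moderately abundant in the control REH cells. Its level in CPM, the count divided by the library size in units of 1000000 after scaling by the trimmed mean of M-values, was 34.9 and 30.6 in medium and 32.8, 30.9 and 31.5 with NTC, from 491 to 649 counts, so the 2 kinds of control overlapped. Per kilobase of exon, the mean control level was 5.48 ± 0.301 CPM per kb for SMYD3 (SD, n = 5). On that scale SMYD5 was highest at 11.8 ± 0.837, SMYD4 stood at 6.29 ± 0.515, and SMYD2 was lowest at 3.10 ± 0.219. SMYD1 had between 0 and 2 counts in every sample. Reads on the opposite strand of SMYD3 numbered at most 2 in any library.

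With lnc-RTN4R-1 GapmeR2 SMYD3 nearly disappeared. The 3 samples held 75, 63 and 68 counts, or 4.35, 3.50 and 3.92 CPM, a mean of 3.92 ± 0.425 that was 12.2% of the control mean. They were the lowest samples of the series and were far from any other. Against the 5 controls the log2 ratio of means was -3.03, and 3 of 15050 tested genes had a lower fitted log2 fold change. SMYD3 was picked for being low in this group, so its rank here is a description only. With lnc-RTN4R-1 GapmeR1 the same gene stood at 27, 27.9 and 26.3 CPM, 84.3% of the control mean. The 2 GapmeRs thus differed 6.91-fold in SMYD3, while their target lncRNA differed 1.25-fold, from 5.85 to 4.69 CPM.

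The second lowest group was not one for which the gene was picked. With lnc-NKX2-3-1 GapmeR1, SMYD3 was at 14.9 and 12.5 CPM (324 and 241 counts), 42.5% of the control mean. With lnc-NKX2-3-1 GapmeR2 it was at 29.9, 32.0 and 24.7 CPM, a range that reached into the controls.

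The 2 lnc-ASTN1-1 GapmeRs were unequal as well. GapmeR2 gave 15.9 and 17.9 CPM, or 52.5% of the control mean, and GapmeR1 gave 25.2, 25.5 and 23.3 CPM, or 76.8%. In SMYD3 the samples with GapmeR1 lay above both samples with GapmeR2, whereas the target lncRNA was lower with GapmeR1 (10.2 CPM) than with GapmeR2 (13.2 CPM). With the lnc-TIMM21-5 GapmeRs SMYD3 was at 33.1, 30.6 and 27.8 CPM for GapmeR1 and at 28.1, 26.7 and 25.5 CPM for GapmeR2. These bulk levels cannot tell fewer cells with SMYD3 RNA from less SMYD3 RNA in each cell.

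**Figure D1:**
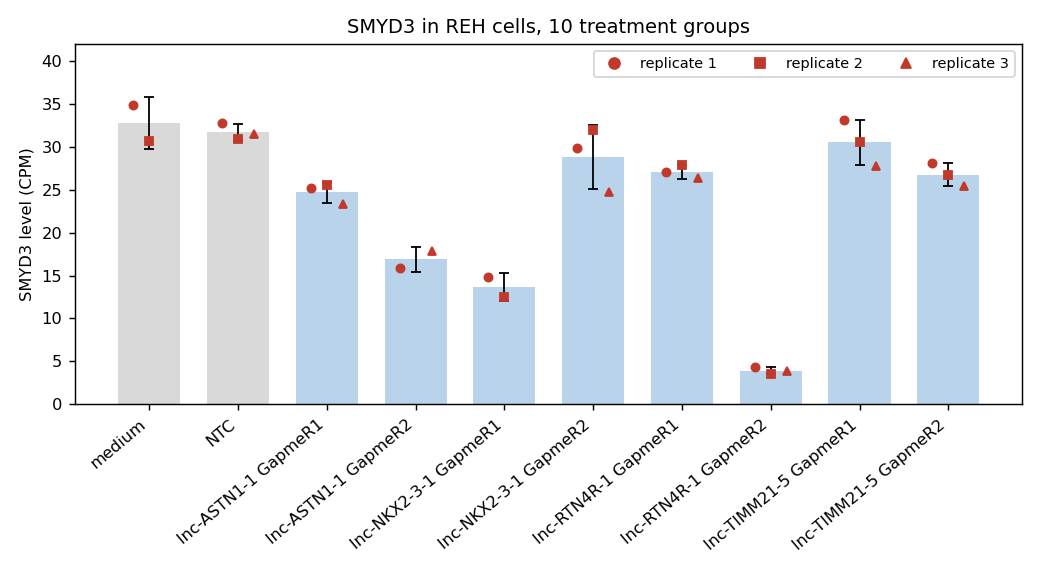
SMYD3 level in CPM in each of the 10 treatment groups. Bars are group means, error bars the SD, and symbols the single samples by replicate number, with the controls in gray. The 3 samples with lnc-RTN4R-1 GapmeR2 lie between 3.50 and 4.35 CPM, below all others, and the 5 controls lie between 30.6 and 34.9 CPM.

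In ascending order of mean SMYD3 level the groups were lnc-RTN4R-1 GapmeR2 (3.92 CPM), lnc-NKX2-3-1 GapmeR1 (13.7), lnc-ASTN1-1 GapmeR2 (16.9), lnc-ASTN1-1 GapmeR1 (24.7), lnc-TIMM21-5 GapmeR2 (26.8), lnc-RTN4R-1 GapmeR1 (27.1), lnc-NKX2-3-1 GapmeR2 (28.9), lnc-TIMM21-5 GapmeR1 (30.5), NTC (31.7) and medium (32.8). The ranges of the first 3 groups overlapped neither with each other nor with lnc-ASTN1-1 GapmeR1 above them. From lnc-ASTN1-1 GapmeR1 upward, each group overlapped its neighbour. All 8 GapmeR means were below the control mean, and in 6 groups every sample was below every control. The groups for which SMYD3 was picked are among these 6. Over all tested genes, the share with every sample below every control was 8.39% for lnc-RTN4R-1 GapmeR2, 19% for lnc-NKX2-3-1 GapmeR1, 3.13% for lnc-ASTN1-1 GapmeR2, 3.35% for lnc-ASTN1-1 GapmeR1, 3.6% for lnc-RTN4R-1 GapmeR1 and 1.26% for lnc-TIMM21-5 GapmeR2. It was 1.93% for lnc-NKX2-3-1 GapmeR2 and 2.22% for lnc-TIMM21-5 GapmeR1, for which SMYD3 overlapped the controls. The 8 comparisons share their controls. Set against controls of the same replicate number, SMYD3 was at 12.8%, 11.4% and 12.5% with lnc-RTN4R-1 GapmeR2 and at 43.9% and 40.6% with lnc-NKX2-3-1 GapmeR1.

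**Figure D2:**
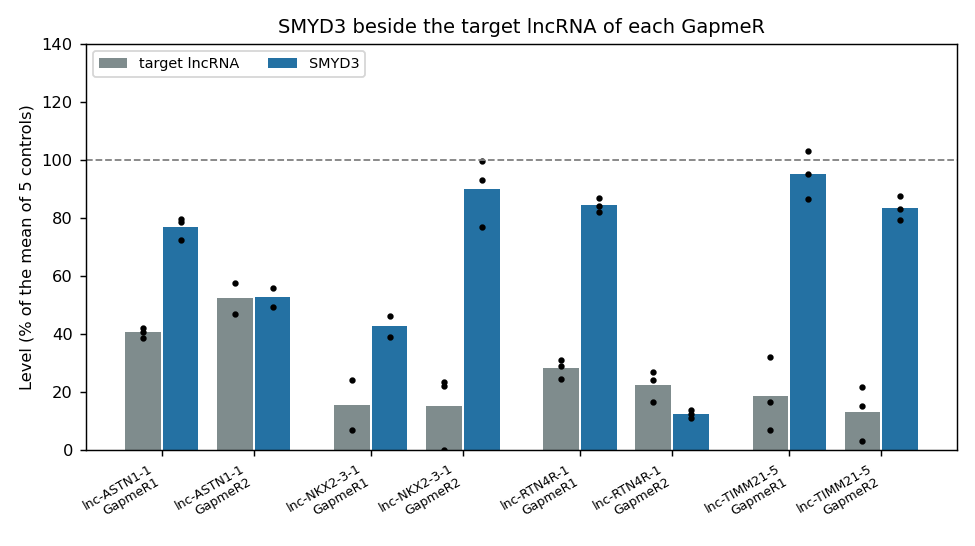
Level of each target lncRNA (gray) and of SMYD3 (blue) as a percent of the mean of the 5 controls, for each GapmeR. Bars are means and dots single samples. The target was low with both GapmeRs of every lncRNA, and for lnc-NKX2-3-1 and lnc-TIMM21-5 it rests on 10 counts or fewer per sample, while SMYD3 ranged from 12.2% to 95%.

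SMYD2, SMYD4 and SMYD5 did not follow SMYD3. They were tested with edgeR's quasi-likelihood test, adjusted by Benjamini-Hochberg over all genes, at an adjusted p of 0.05. Of 24 tests (3 genes and 8 GapmeRs against the controls), 1 passed, and that one was an increase. SMYD4 rose with lnc-NKX2-3-1 GapmeR1, from 45.8 and 45.3 CPM in medium and 39.7, 44.8 and 38.3 CPM with NTC to 51.2 and 57.1 CPM, both above every control, as were 17% of all tested genes with this GapmeR. The log2 fold change was 0.35 (SE 0.0916, adjusted p = 0.0191, edgeR), in a comparison in which 17.6% of all tested genes were called. The call was lost when either GapmeR1 sample was left out, with adjusted p = 0.190 without replicate 1 and 0.280 without replicate 2, where the lone remaining sample is assumed to vary like the others.

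SMYD5 in the same comparison went from 37.7 to 44.4 CPM in the controls to 46.1 and 44 CPM, so the groups overlapped. Its log2 fold change of 0.20 (SE 0.0857) had an adjusted p of 0.137 in edgeR. With the replicate number as a block it was 0.18 with an adjusted p of 0.0253, in a fit that called 5611 of 15402 genes.

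With lnc-RTN4R-1 GapmeR2, where SMYD3 was lowest, SMYD2 was at 13.3, 15.2 and 10.8 CPM against 13.9 to 16.8 CPM in the controls. Its log2 difference was -0.20, with a 95% interval from -0.45 to 0.05, from the t distribution with the degrees of freedom of the test. SMYD4 was at 39.3, 39.6 and 36.0 CPM with a difference of -0.16 (95% interval -0.33 to 0.02), and SMYD5 at 41.1, 40.9 and 46.0 CPM with a difference of 0.11 (-0.06 to 0.28). All 3 overlapped the controls, and none passed the test, in a comparison that called 6.62% of all genes. The SMYD3 log2 ratio of -3.03 belongs to a group for which the gene was picked, so these intervals are no test against it.

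With the lnc-ASTN1-1 GapmeRs the log2 differences of the 3 genes lay between -0.15 (SMYD2, GapmeR2, 95% interval -0.39 to 0.09) and 0.09 (SMYD5, GapmeR1, -0.07 to 0.25), and none was called. In these comparisons 0.718% of all genes were called with GapmeR1 and 0.013% with GapmeR2. None of the 3 was called with lnc-RTN4R-1 GapmeR1 (1.59% of all genes), lnc-NKX2-3-1 GapmeR2 (0%), lnc-TIMM21-5 GapmeR1 (0.079%) or lnc-TIMM21-5 GapmeR2 (0.0593%). Across the 24 tests, SMYD2 ranged from -0.20 to 0.07 and SMYD5 from -0.06 to 0.20 in log2 fold change, and SMYD4 from -0.16 to 0.35.

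**Figure D3:**
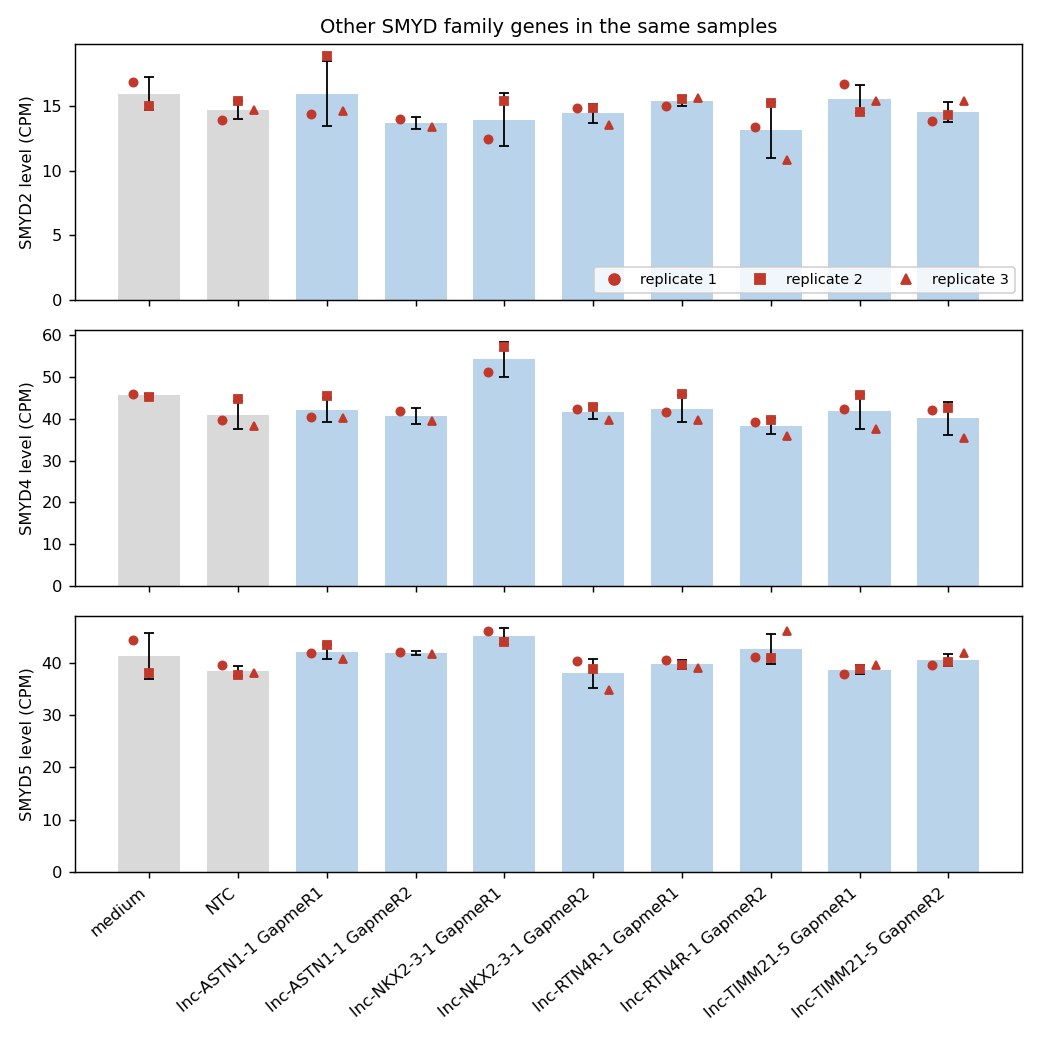
Levels of SMYD2, SMYD4 and SMYD5 in CPM in the same samples, with group means as bars, the SD as error bars and single samples as symbols. SMYD4 with lnc-NKX2-3-1 GapmeR1 lies at 51.2 and 57.1 CPM, above every control.

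The 2 GapmeRs of each lncRNA were also compared directly. Of 12 such tests, 1 passed. SMYD4 was higher with lnc-NKX2-3-1 GapmeR1 than with GapmeR2, which gave 42.4, 42.8 and 39.8 CPM, by 0.38 on the log2 scale (SE 0.0952, adjusted p = 0.0270, edgeR), and 13% of all genes were called in this pair. This call too was lost without replicate 1 (adjusted p = 0.259) and without replicate 2 (adjusted p = 0.462). For lnc-RTN4R-1, the pair in which SMYD3 differed 6.91-fold and in which 5.92% of all genes were called, SMYD2 and SMYD4 were higher with GapmeR1 by 0.23 and 0.15, and neither passed the test. In the lnc-ASTN1-1 and lnc-TIMM21-5 pairs, with 0.146% and 0.0784% of genes called, none of the 3 passed. With the replicate number as a block, 3 of the 12 passed: SMYD4 (0.35, adjusted p = 1.21e-08) and SMYD5 (0.19, adjusted p = 0.00432) in the lnc-NKX2-3-1 pair, and SMYD4 (0.15, adjusted p = 0.0477) in the lnc-RTN4R-1 pair. The blocked fits called 41.8% of all genes in the lnc-NKX2-3-1 pair, with 1 residual degree of freedom, and 30.9% in the lnc-RTN4R-1 pair.

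How far the oligonucleotides could pair with SMYD3 was then read from the genome. The longest perfect run was 13 bases for each lnc-ASTN1-1 GapmeR and 11 or fewer for the other 6 GapmeRs and for NTC, whose longest run was 10. Both runs of 13 were in introns of SMYD3, and the sites are shown on the sense strand with the paired run in capitals.
lnc-ASTN1-1 GapmeR1 at chr1:245761059-245761074: CACTCCTGGCAGAgtt
lnc-ASTN1-1 GapmeR2 at chr1:246301527-246301541: ctCATTACTTCAGAC
The first lies 746 kb and the second 206 kb downstream of the start of the gene, and each has 2 mismatches to the whole oligonucleotide. lnc-ASTN1-1 GapmeR2 had 1 further intronic site with 2 mismatches. The GapmeRs with the lowest SMYD3 had shorter runs. lnc-RTN4R-1 GapmeR2 had 3 runs of 11 bases and lnc-NKX2-3-1 GapmeR1 1 run of 10, and neither had a site with 2 or fewer mismatches in SMYD3. NTC and lnc-TIMM21-5 GapmeR1 each had 1 intronic site with 2 mismatches. Sites with at most 2 mismatches were frequent in long genes. Of 161 expressed genes that span over 500 kb, as SMYD3 does, 55.9% had one for lnc-ASTN1-1 GapmeR2. The shares were 54.7% for lnc-TIMM21-5 GapmeR1, 18% for lnc-ASTN1-1 GapmeR1 and 10.6% for NTC. In the spliced SMYD3 transcripts no oligonucleotide reached a run above 9 bases. In SMYD2, SMYD4 and SMYD5 the longest run was 11.

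For scale, a run of 13 or more to lnc-ASTN1-1 GapmeR1 was found in 0.387% of 16024 expressed genes and in 6.83% of the 161 that span over 500 kb, as SMYD3 does. For lnc-ASTN1-1 GapmeR2 the shares were 0.225% and 3.11%. With SMYD3 itself left out, 32.1% of 56 tested genes with such a run were called lower with lnc-ASTN1-1 GapmeR1, against 0.548% of 14783 without one. For lnc-ASTN1-1 GapmeR2 only 1 of 34 genes with a run was called lower, and 0 of 15104 without one. For lnc-RTN4R-1 GapmeR2 the shares were 58.5% of 53 and 3.65% of 14803. With lnc-NKX2-3-1 GapmeR1 they were 8 of 8 and 10.2% of 15181, and with lnc-RTN4R-1 GapmeR1 28.3% of 46 and 0.495% of 14939. The target lncRNAs were not left out of these counts. Such runs were more frequent in long genes, so these shares mix the match with gene length. Among genes over 500 kb, 2 of 8 with a run and 7.86% of 140 without one were called lower with lnc-ASTN1-1 GapmeR1. For lnc-ASTN1-1 GapmeR2 these were 1 of 3 and 0 of 150, and for lnc-RTN4R-1 GapmeR2 3 of 5 and 42.7% of 143. They were 1 of 1 and 57.5% of 153 with lnc-NKX2-3-1 GapmeR1, and 3 of 13 and 3.62% of 138 with lnc-RTN4R-1 GapmeR1. SMYD3 belongs to the genes with a run for the lnc-ASTN1-1 GapmeRs. It belongs to those without one for the lnc-RTN4R-1 GapmeRs and lnc-NKX2-3-1 GapmeR1. The part of these matches in the SMYD3 level was not tested.

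Long genes were often lower in the 2 groups with the lowest SMYD3. With lnc-ASTN1-1 GapmeR2 few genes of any length were called. With SMYD3 left out, 43.2% of 148 genes over 500 kb were called lower with lnc-RTN4R-1 GapmeR2 and 57.8% of 154 with lnc-NKX2-3-1 GapmeR1, against 1.77% and 7.16% of genes under 100 kb. The median log2 fold change of the long genes was -0.45 and -0.79 in these groups. With lnc-ASTN1-1 GapmeR2, next in the order of SMYD3, the median was -0.05 and 1 of 153 was called lower. Under 100 kb it was 0 of 12638, in a comparison that called 2 of 15346 genes in all. The median of the long genes was -0.17 with lnc-ASTN1-1 GapmeR1, where 8.78% of 148 were lower against 0.388% under 100 kb. It was -0.06 with lnc-RTN4R-1 GapmeR1, where 5.3% of 151 were lower against 0.368% under 100 kb. The median was -0.07 with lnc-TIMM21-5 GapmeR1, -0.09 with lnc-TIMM21-5 GapmeR2 and -0.04 with lnc-NKX2-3-1 GapmeR2. The part of gene length in the SMYD3 level was not tested.

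The genes around SMYD3 mostly did not move with it. Of 65 annotated genes within 1000000 bases of SMYD3, 22 were tested. With lnc-RTN4R-1 GapmeR2, 2 of the 22 fell and 1 rose, while 3.85% of all tested genes fell and 2.76% rose. Their median log2 fold change was 0.04 against 0.01 over all tested genes. EFCAB2, an EF-hand domain gene, went from 40.4 to 45.9 CPM in the controls to 30.4, 24.4 and 24.3 CPM, with no overlap (log2 fold change -0.71, SE 0.0929, adjusted p = 3.06e-04, edgeR). The zinc finger gene ZNF496 fell by 0.52 on the log2 scale, and the lncRNA LINC01341 rose by 0.59. TFB2M, a mitochondrial transcription factor gene and the nearest tested gene upstream of SMYD3, was at a log2 fold change of 0.06 (SE 0.0905), and CNST next to it at 0.10 (SE 0.0790). KIF26B, a kinesin family gene and the nearest tested gene on the other side, was at -0.14 (SE 0.0778, adjusted p = 0.330). With lnc-NKX2-3-1 GapmeR1, 3 of the 22 neighbours fell and 3 rose, while 10.2% of all tested genes fell and 7.41% rose. KIF26B fell by 1.36 on the log2 scale, from 93.1 to 36.1 CPM on average, EFCAB2 fell by 1.16 and the pseudogene ENSG00000215795 fell by 1.84, while ZNF670, ZNF669 and AHCTF1 rose by 0.50, 0.39 and 0.30. None of the 22 was called by edgeR with either lnc-ASTN1-1 GapmeR or with the other 4 GapmeRs. Over these 6 GapmeRs, 9 of 132 tests had an unadjusted p under 0.05, and DESeq2 called none either. With the replicate number as a block there were 15 calls in place of 9. Of these, lnc-NKX2-3-1 GapmeR1 had 8 of 22 and lnc-RTN4R-1 GapmeR2 4 of 22, in fits that called 36.4% and 22.4% of all genes. Among the added ones KIF26B was lower with lnc-ASTN1-1 GapmeR1 (-0.20, adjusted p = 0.00713, edgeR), in a fit that called 4.86% of all genes. KIF26B was also lower with lnc-RTN4R-1 GapmeR1 (-0.23) and with lnc-RTN4R-1 GapmeR2 (-0.17). The inflammasome gene NLRP3 was lower with lnc-RTN4R-1 GapmeR1 (-0.63), for which 9.39% of all genes were called. The fits of lnc-RTN4R-1 GapmeR2 without replicate 1 and without replicate 2 called 1.4% and 1.61% of all genes. Without replicate 1 or without replicate 2, 2 of the 3 calls with lnc-RTN4R-1 GapmeR2 (EFCAB2 and ZNF496) and 2 of the 6 with lnc-NKX2-3-1 GapmeR1 (EFCAB2 and KIF26B) remained.

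**Figure D4:**
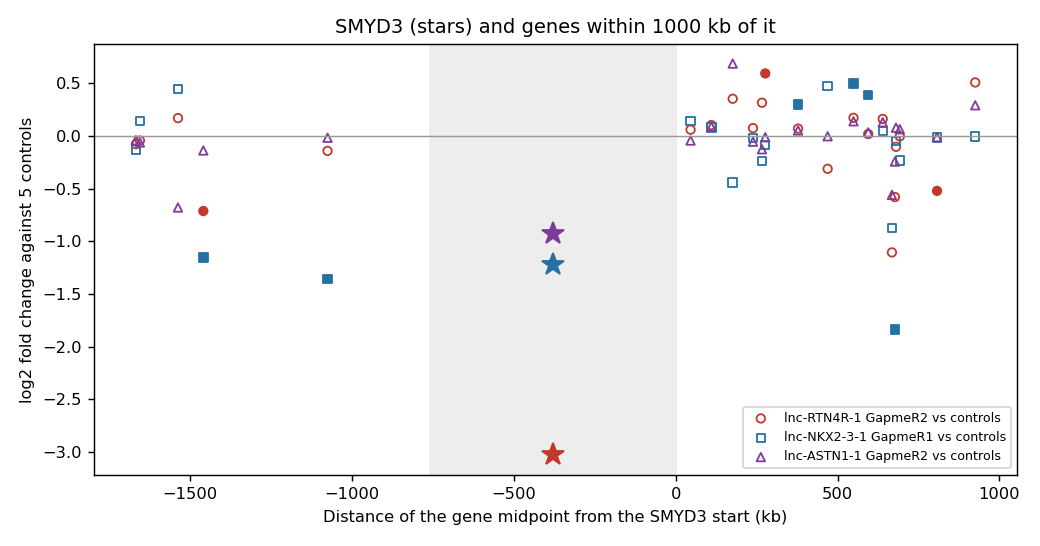
Log2 fold change against the 5 controls of the 22 tested genes within 1000000 bases of SMYD3, by the distance of the gene midpoint from the SMYD3 start in kb, for 3 GapmeRs. Filled symbols passed the test, the gray band is the SMYD3 gene, and stars give SMYD3 itself. SMYD3 lies below all its neighbours with lnc-RTN4R-1 GapmeR2, a group for which it was picked.

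Other enzymes of lysine methylation and partners of SMYD3 were described as 4 lists with 52 genes in all, 51 of them tested. With lnc-RTN4R-1 GapmeR2, 5 fell and 1 rose, while 3.85% and 2.76% of all tested genes did so. Among 11 genes of histone H3 lysine 4 methylation (the KMT2 and SETD1 enzymes, SETD7 and their core subunits), 1 fell and none rose, with a median log2 fold change of 0.03 against 0.01 over all genes. It was ASH2L, a core subunit of the KMT2 complexes, which had 86.4 and 84.0 CPM in medium, 85.7, 84.6 and 70.1 CPM with NTC and 22.7, 24.3 and 21.2 CPM with the GapmeR. ASH2L thus fell by 1.85 without overlap on the log2 scale (SE 0.0892, adjusted p = 3.64e-08, edgeR), and with lnc-RTN4R-1 GapmeR1 its mean was 76.3 ± 3.30 CPM (SD, n = 3). Of 25 other tested SET-domain enzymes, 2 fell and 1 rose, with a median of -0.01. EHMT1, a histone H3 lysine 9 methyltransferase, fell by 0.80, from a control mean of 143 CPM to 82.0 CPM, NSD3 fell by 0.23 and SETDB2 rose by 0.25. Of 5 H3 lysine 4 demethylases, KDM1B fell by 0.30 and the median was -0.13. Of 10 partners and MAP kinases, the kinase MAP2K5 fell by 0.35 and the median was 0.05, while the SMYD3 substrate gene MAP3K2 averaged 76.0 CPM against 75.9 CPM in the controls.

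With lnc-NKX2-3-1 GapmeR1, 9 list genes rose and 5 fell, named here after their values were seen, while 7.41% and 10.2% of all tested genes did so. In the H3 lysine 4 list KMT2A and WDR5 rose by 0.65 and 0.27, and the median of the list was 0.17 against 0.00 over all genes. Of the other SET-domain enzymes, ASH1L, SETD2, PRDM2, KMT2E and NSD2 rose by 0.67 to 0.28 and EHMT1, SETD3 and SETD5 fell by 0.42, 0.29 and 0.29, with a median of 0.12. The demethylases KDM1A and KDM1B went opposite ways, at 0.30 and -0.29, with a list median of 0.08. Of the partners and MAP kinases, MAP3K2 rose by 0.31, MAP2K5 fell by 1.35 and the median was 0.04. With the other 6 GapmeRs, both lnc-ASTN1-1 GapmeRs included, edgeR called no list gene and the list medians lay between -0.12 and 0.08. In these, 10 of 306 tests had an unadjusted p under 0.05, and DESeq2 called KMT2A with lnc-ASTN1-1 GapmeR1 and MAP2K1 with lnc-RTN4R-1 GapmeR1.

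**Figure D5:**
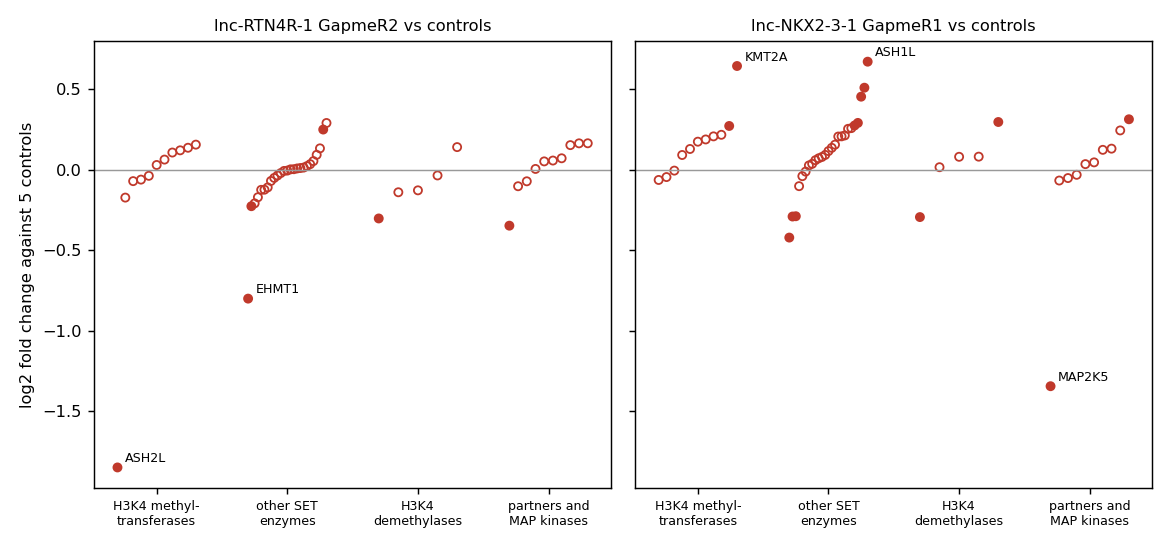
Log2 fold change against the 5 controls of the tested genes of the 4 lists, ordered by size within a list, for lnc-RTN4R-1 GapmeR2 and lnc-NKX2-3-1 GapmeR1. Filled points passed the test. ASH2L stands apart on the left at -1.85 and MAP2K5 on the right at -1.35.

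These list counts depended on the fit. With the replicate number as a block there were 13 calls in place of 6 for lnc-RTN4R-1 GapmeR2 and 27 in place of 14 for lnc-NKX2-3-1 GapmeR1, in fits that called 22.4% and 36.4% of all genes. With lnc-ASTN1-1 GapmeR1 (4.86% of all genes called), KMT2A, ASH1L, KDM1B and KDM5C were then lower, at log2 fold changes of -0.32, -0.30, -0.19 and -0.15. HSP90AA1 and MAP2K1 were higher with lnc-RTN4R-1 GapmeR1 (0.14 and 0.23, 9.39% of all genes called), and SETD1B and NSD3 were lower with lnc-TIMM21-5 GapmeR1 (-0.19 and -0.17, 2.79% of all genes called). Without replicate 1 or without replicate 2, ASH2L and EHMT1 were the calls that remained for lnc-RTN4R-1 GapmeR2, and MAP2K5 remained for lnc-NKX2-3-1 GapmeR1 in both.

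Finally, genes were ranked by how their 10 group means of log2 CPM followed those of SMYD3. Among 16267 genes, the 6 most alike by Pearson correlation were NCOA2 (r = 0.968), ENSG00000272733 (0.967), KLF8 (0.962), ZFHX3-AS1 (0.960), CCDC15 (0.956) and LPAR4 (0.955), and 103 genes had r over 0.9. The correlation is over 10 groups of 1 cell line that share days of culture, and is given as a description. All 6 genes were lowest with lnc-RTN4R-1 GapmeR2, a group for which SMYD3 was picked, with log2 differences from -1.82 to -0.46. With lnc-NKX2-3-1 GapmeR1 they lay between -0.65 and -0.19. The weight of the lnc-RTN4R-1 GapmeR2 group in r was not tested. NCOA2, a nuclear receptor coactivator gene, was at 70.1 CPM with lnc-RTN4R-1 GapmeR2 against 107 CPM in the controls, and LPAR4, a lysophosphatidic acid receptor gene, at 0.856 against 3.05 CPM. With lnc-ASTN1-1 GapmeR2, where SMYD3 was near 52.5% of control, the log2 differences of the 6 genes from the controls lay between -0.26 and -0.02. SMYD3, which was picked for its low level in this group among others, had a log2 ratio of -0.93.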

How the data were processed

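Stranded RNA-seq reads of ribodepleted total RNA, per the labels (the study's methods mention poly-A selection), were aligned to hg38 by the authors with STAR. The deposited values are raw counts per gene in 3 strand settings, and column 4 (reverse strand) was used because it held 95.3% of the stranded counts. The annotation release is not given in the sources used here. Names and coordinates came from GENCODE v44, which named 56434 of 60619 IDs.

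Each GapmeR was compared with the 5 controls, or with the other GapmeR of its lncRNA, by edgeR 4.0.16 (R 4.3.3) with TMM library sizes, filterByExpr (minimum count 10, minimum total 15), a quasi-likelihood test without covariates and Benjamini-Hochberg adjustment over all genes tested, at 0.05. Standard errors are the fold change over the root of F. On simulated counts for lnc-RTN4R-1 GapmeR2 (15050 genes) 161 of 200 genes changed by a log2 of 1 were recovered, with 3.01% false calls. Smaller changes, such as those seen for SMYD2, SMYD4 and SMYD5, were not simulated, nor was an effect of the replicate day. DESeq2 1.42.0 was an alternative. In the replicate block, and in ratios to controls of the same number, replicate numbers were taken to pair samples. Replicates were run on different days, and the main fits left this pairing out. Deviations from group means correlated at 0.263 on average between samples of the same number (94 of 109 pairs over 0.1) and at -0.130 otherwise. Replicates were no duplicates, since their counts differed by 3.45 to 17.4 times the sampling noise (chi-square per degree of freedom). This was 3.45 to 8.26 between replicates 1 and 2, and 11.1 to 17.4 in pairs with replicate 3. Neither medium nor lnc-NKX2-3-1 GapmeR1 had a replicate 3, so the main fits of that GapmeR were not balanced for it. Depth sets the precision: 491 to 649 SMYD3 counts in controls.

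GapmeR sequences came from the study's oligonucleotide list and were searched in the sense strand of each gene of hg38 (perfect runs of at least 13 bases, or at most 2 mismatches). lnc-ASTN1-1 GapmeR1 had no full match in the annotated span of its target, where the fewest mismatches were 2, and the other GapmeRs had 1 each. The genes named were the members, the 6 genes most like SMYD3 by group means, up to 4 changed genes per list with lnc-RTN4R-1 GapmeR2 or the lnc-ASTN1-1 GapmeRs, and tested genes within 1000000 bases. The members, lists and tests were chosen with earlier results of these data known.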

Additional observations from a re-analysis of the deposited data

Results flagged for a closer look

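SMYD4 differed between the 2 GapmeRs of lnc-NKX2-3-1, higher by 0.38 on the log2 scale with GapmeR1 than with GapmeR2 (adjusted p = 0.0270, edgeR), and both GapmeR1 samples were above all 3 GapmeR2 samples. Among the 5 controls, 1 medium sample was far from the others in SMYD5, at 44.4 CPM. The controls were examined in this way for 4 genes, and chance flags about 1 group in 20.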

How the results depend on the processing

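Of 64 alternatives for the SMYD3 log2 ratios, 61 lay within 1 SD of the reported value. The other 3 were -0.79 for lnc-ASTN1-1 GapmeR2 without replicate 1, and -0.19 and -0.31 for lnc-RTN4R-1 GapmeR1 without replicate 1 and without replicate 2. Over all fits that left out a replicate, the ranges were -1.03 to -0.79 and -0.31 to -0.19. SMYD2, SMYD4 and SMYD5 gave 1 call in 24 tests, 2 with the replicate block and 0 to 1 when a replicate was left out. Between the GapmeRs of a lncRNA they gave 1 call in 12, 3 with the replicate block and 0 to 1 when a replicate was left out. The SMYD4 call against the controls was kept with the replicate block, without replicate 3 and under the other 7 alternatives, DESeq2, other scaling, no filter and NTC alone among them. The following alternatives for lists and neighbours were chosen after seeing the data. The lists gave 20 calls, 48 with the replicate block, 23 with DESeq2 and 3 to 20 when a replicate was left out. The neighbours gave 9 calls, 15 with the replicate block and 4 to 9 when a replicate was left out. Of the 6 genes most like SMYD3, 2 were also among the first 6 over 27 samples. Perfect runs to SMYD3 were found for 2 GapmeRs, 0 at a minimum of 14 bases, and 4 oligonucleotides had a site with at most 2 mismatches, a search also added after seeing the data. Fits without replicate 1 or 2 leave lnc-NKX2-3-1 GapmeR1 with 1 sample, assumed to vary like the rest. The causes of these changes were not tested, and in the blocked fits of pairs few residual degrees of freedom remain. The low counts of lnc-NKX2-3-1 and lnc-TIMM21-5 limit the precision of their levels.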
